A study of Mus musculus with 3 samples.

Results

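Hmga1, Hmga2, Igf2bp1, Igf2bp2, Igf2bp3 and Lin28b, 6 genes of the fetal growth programme, were followed on 3 single-colour Agilent mouse arrays. The genes were chosen by name because Hmga2 was one of the genes with the lowest late values relative to MSCs, so the values below describe the genes and are no test of them. Each array probe was named through its transcript accession, and 11 probes belonged to these 6 genes, of 20279 genes that could be named in all. The arrays were hybridised with RNA of primary bone marrow mesenchymal stem cells (MSCs, marrow stroma with the capacity to become bone, fat or cartilage) from male mice aged 8 weeks. The groups were MSCs at day 0, before induction, and cultures kept for 3 or 21 days in osteogenic medium with ascorbic acid and beta-glycerophosphate, which supply what collagen maturation and mineral formation need. The labels name no strain, genetic change or number of animals pooled, and there was 1 array per group, so no difference had a replicate check and no test between days was possible.

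HMGA1 and HMGA2 are small chromatin proteins that hold AT-rich DNA with short motifs called AT-hooks and open it for other factors. They are abundant in dividing embryonic cells and mostly silent in adult tissue, and loss of HMGA2 gives the small pygmy mouse. IGF2BP1, IGF2BP2 and IGF2BP3 are RNA-binding proteins that hold and stabilise mRNAs such as Igf2, H19 and Myc, in part through the m6A mark. LIN28B binds the precursors of the let-7 microRNAs and stops their maturation, and let-7 in turn represses Hmga2, the Igf2bp genes and Lin28b itself.

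The let-7 microRNAs link these genes, and their sequences are shown for the part they share. A microRNA pairs with its targets through its seed, bases 2 to 8 from the 5′ end, printed in capitals. Of 11 mature forms in RefSeq (build GRCm38.p6), 10 carried the same seed, and let-7j differed.
mmu-let-7a-5p: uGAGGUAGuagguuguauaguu
mmu-let-7d-5p: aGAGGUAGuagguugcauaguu
mmu-let-7g-5p: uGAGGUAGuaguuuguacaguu
mmu-miR-98-5p: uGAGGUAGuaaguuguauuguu
mmu-let-7j: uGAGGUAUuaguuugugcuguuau
LIN28 proteins recognise GGAG in the loop of a let-7 precursor. The letters GGAG were present anywhere in 9 of 12 let-7 and miR-98 hairpins (75%), against 44.5% of all 1005 microRNA hairpins in the table. The let-7g hairpin holds them, in capitals below, and the let-7b hairpin does not.
Mirlet7g: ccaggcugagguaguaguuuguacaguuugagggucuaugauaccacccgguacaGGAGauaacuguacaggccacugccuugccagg
Mirlet7b: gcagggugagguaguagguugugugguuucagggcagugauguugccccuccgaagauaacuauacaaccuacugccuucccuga
Mature microRNAs were not measured by these arrays.

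Lin28b, the inhibitor of let-7 maturation, was not well above background at any day. Its brighter probe read 2.72 at day 0, 2.74 at day 3 and 2.64 at day 21, and its other probe 2.64, 2.60 and 2.48, as processed signal in the array's linear intensity. The lowest signal of any probe well above background was 10.2, 10.5 and 8.24 on these arrays, so both probes lay below what the arrays could measure and no fold was computed. Lin28a, the paralog of Lin28b, was above background on all 3 arrays, at a dim signal of 54.6, 77.1 and 79.0.

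Hmga2, the chromatin protein for which the set was chosen, had the largest difference of the 5 genes measured, and both of its probes (A_52_P300730 and A_55_P2043921) showed it. The brighter probe read 1974 at day 0, 892 at day 3 and 111 at day 21, and the dimmer probe 606, 251 and 38.1. Both probes were highest in MSCs, lower at day 3 and lowest at day 21. Signals were then put on a log2 scale relative to each array's 75th percentile, and a difference is given with the SD that the scanner software's error model assigns to it, which covers the array and not cultures or animals. On that scale Hmga2 differed by -1.17 (SD 0.20) at day 3 against day 0, which is 2.24-fold lower. At day 21 it differed by -4.30 (SD 0.21) from day 0, 19.7-fold lower, and by -3.14 (SD 0.21) from day 3, 8.79-fold lower. The dimmer probe gave -1.29, -4.14 and -2.85 for the same comparisons, within 0.29 of the brighter one. At day 21 the gene stood at 5.07% of its day 0 level. In these bulk cultures fewer cells with Hmga2 mRNA and less of it per cell cannot be told apart.

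Hmga1, its close relative, was among the bright genes of the arrays. Its brightest probe read 28211 at day 0, 15881 at day 3 and 5096 at day 21 and was lower at each later day. The difference was -0.85 (SD 0.20) at day 3 and -2.62 (SD 0.20) at day 21, both against day 0, and -1.77 (SD 0.20) between day 21 and day 3. The day 21 level was thus 6.13-fold lower than that of MSCs. A second probe, designed on another transcript variant, read 201, 102 and 41.0 and gave -0.99, -2.44 and -1.45. The remaining probe, on a further variant, disagreed in size: it read 15.3, 12.9 and 13.1, close to the lowest measurable signal, and gave -0.26 (SD 0.38), -0.37 (SD 0.36) and -0.10 (SD 0.39). The differences of this dim probe were thus no larger than about 1 SD.

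**Figure D1:**
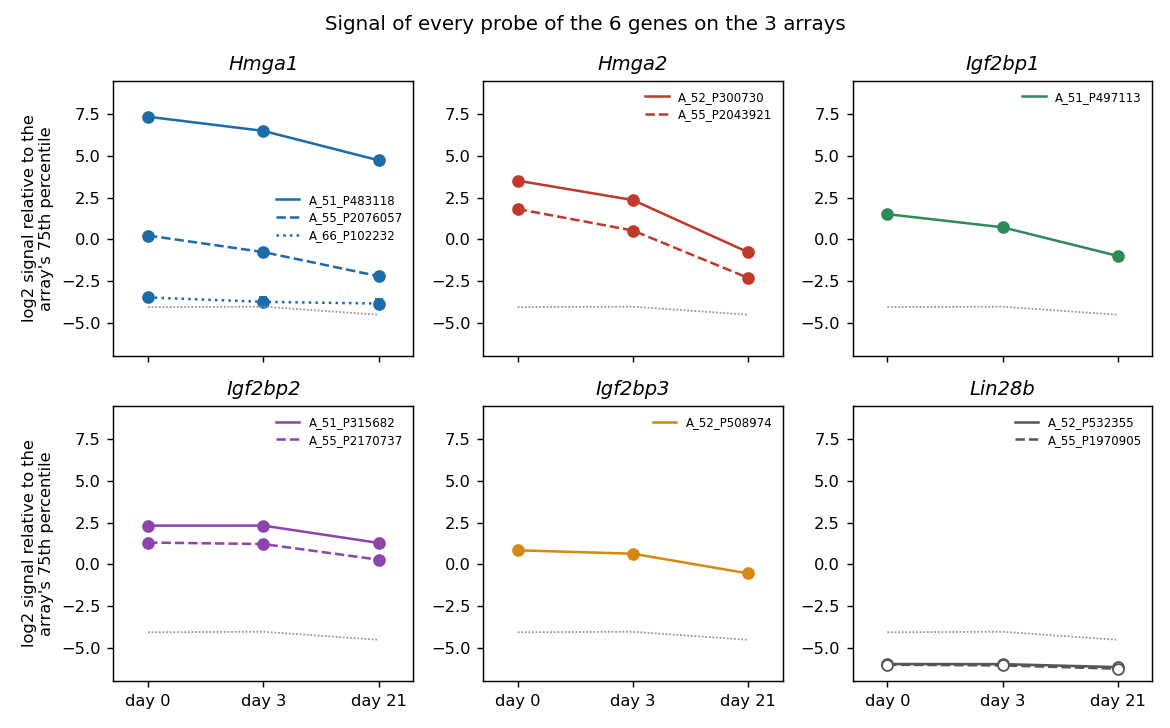
Signal of each of the 11 probes at day 0, 3 and 21 (1 array each), as log2 of the processed signal relative to the array's 75th percentile; bars, mostly hidden by the points, are the error model's SD, open points are not well above background, and the grey dotted line is the lowest value well above background. Both Hmga2 probes and the 2 brighter Hmga1 probes step down at each day, Igf2bp2 and Igf2bp3 mainly between day 3 and day 21, and Lin28b lies under the dotted line; heights of different probes are not comparable.

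Among the RNA-binding proteins, Igf2bp1 had the largest difference. Its single probe read 489 at day 0, 287 at day 3 and 95.2 at day 21. It differed by -0.79 (SD 0.20) at day 3 and by -2.51 (SD 0.21) at day 21 against day 0, and by -1.72 (SD 0.21) between the later days. The day 21 level was 5.69-fold lower than in MSCs, and Hmga1 minus Igf2bp1 was -0.06 at day 3 and -0.11 at day 21, less than the array error.

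Igf2bp3, which also binds Igf2 and Cd44 mRNA, read 309, 272 and 131 on its single probe. MSCs and day 3 cells differed by -0.20 (SD 0.20), no more than the array error. Day 21 was lower than day 0 by 2.62-fold (-1.39, SD 0.21) and lower than day 3 by 2.27-fold (-1.18, SD 0.21). With normexp background correction, which adds an offset, the former was -0.93 and the latter -0.83, short of 2-fold.

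Igf2bp2, the family member that persists in many adult tissues and has been tied to fat and glucose metabolism, was the least altered. Its brighter probe read 863 at day 0, 876 at day 3 and 465 at day 21, and its dimmer probe 426, 406 and 232. The first 2 arrays were alike and the day 21 array was low. The difference was 0.0025 (SD 0.20) at day 3, and -1.04 (SD 0.20) at day 21 against either earlier day. The dimmer probe gave -0.09, -1.03 and -0.94, so the 2 probes stood on either side of 2-fold for day 21 against day 3. The day 21 against day 0 value of the brighter probe was -0.87 with the percentile of detected spots and -0.92 with quantile normalization. With normexp correction it was -0.99, and Igf2bp3 at -0.93 was then less altered. By dimmest detected probe Hmga1 was the least altered, at -0.37.

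**Figure D2:**
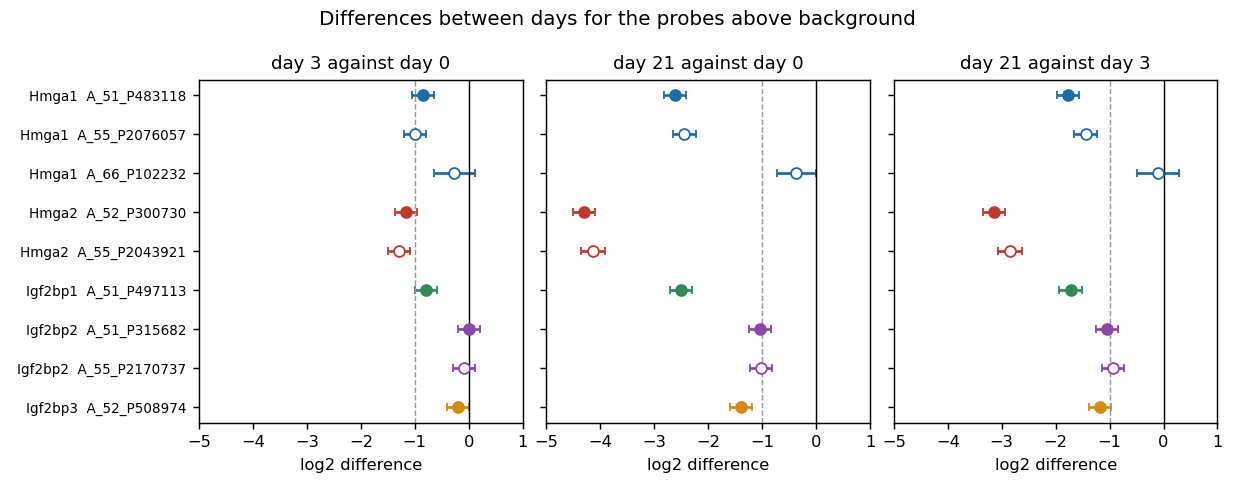
Log2 difference between days for the 9 probes above background (filled, the brightest probe of a gene; open, its other probes), with bars of 1 error-model SD and a dashed line at 2-fold lower. Hmga2 lies lowest in the comparisons with day 21 at -4.30 and -3.14, and the dim Hmga1 probe lies near 0.

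Counted by their brightest probe, 5 of the 6 genes were measured, that is well above background on both arrays of a comparison, and Lin28b was not. Day 3 against day 0 had 1 of the 5 at least 2-fold lower (Hmga2) and 0 higher, where 7.85% of 12455 measured genes were 2-fold lower and 7.73% higher. The median of the 5 was -0.79, beside -0.08 over all measured genes. Day 21 against day 0 had all 5 at least 2-fold lower, where 16.8% of 12387 genes were lower and 12.8% higher, with a median of -2.51 beside -0.21. Day 21 against day 3 also had 5 lower and 0 higher, where 7.11% of 12739 genes were lower and 7.75% higher, with medians of -1.72 and -0.10. At 3-fold, 0, 3 and 3 members were lower in these comparisons, where 2.52%, 6.77% and 2.14% of genes were. Other processing settings gave 3 to 5 members at least 2-fold lower in either comparison with day 21. Since the genes were chosen with these values known, nothing is read from these counts. Counted from the lowest difference of all measured genes, Hmga2 ranked 8 between the later days and 28 between MSCs and day 21. Hmga1 ranked 278 and Igf2bp1 308 in the latter comparison, Igf2bp3 1109 and Igf2bp2 1948.

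**Figure D3:**
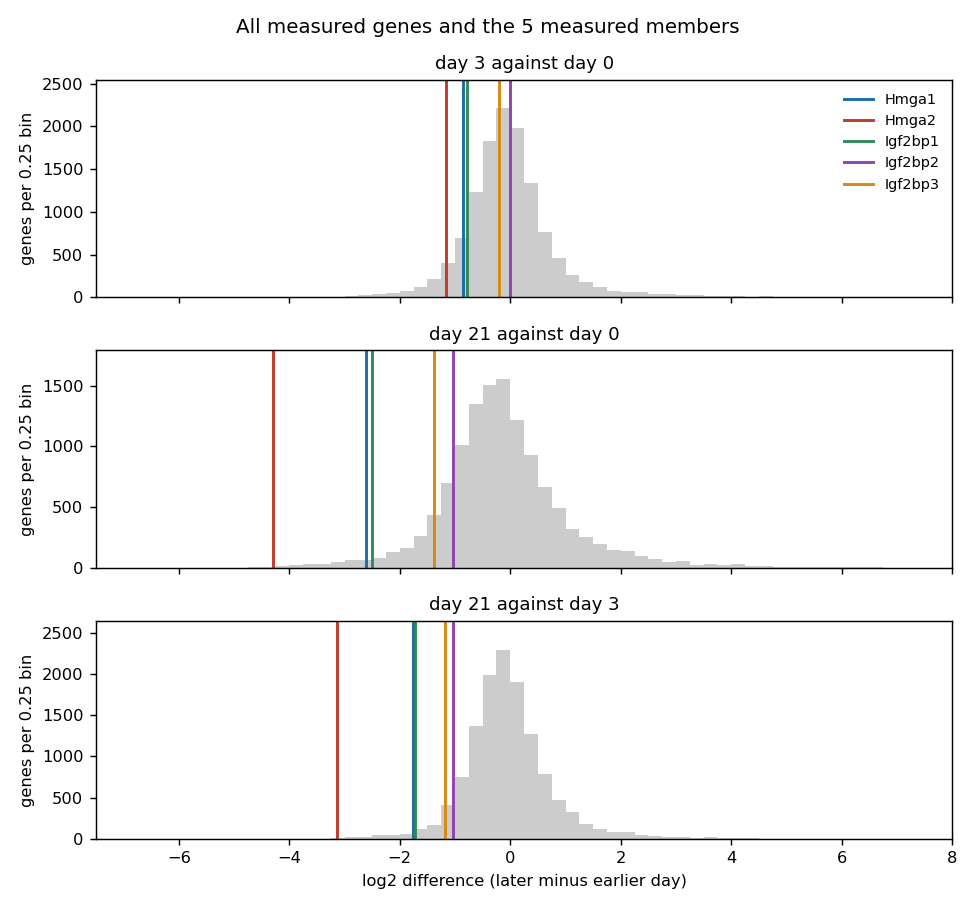
Number of measured genes per 0.25-wide bin of log2 difference (grey; a few genes lie beyond the axis) with the 5 measured members as coloured lines, for each pair of days. At day 3 the members lie between -1.17 and 0.0025, where the middle of all genes (quartiles) runs from -0.47 to 0.31; in both comparisons with day 21 all lie at or below -1.04.

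The share of the difference that was present at day 3 was computed for each gene. On the log2 scale 27.1% of the day 0 to day 21 difference of Hmga2 was present at day 3, 32.4% for Hmga1 and 31.4% for Igf2bp1. For Igf2bp3 that share was 14.7%, and for Igf2bp2 it was -0.24%. These shares and their order depend on the scaling: with spike-ins they were 37.5% for Hmga2, 48.5% for Hmga1, 48.2% for Igf2bp1, 45.6% for Igf2bp3 and 41.9% for Igf2bp2. At day 3 Hmga2 stood at 44.6% of its day 0 level, Hmga1 at 55.5%, Igf2bp1 at 57.9%, Igf2bp3 at 86.8% and Igf2bp2 at 100.2%. At day 21 the order was Hmga2 (5.07%), Hmga1 (16.3%), Igf2bp1 (17.6%), Igf2bp3 (38.2%) and Igf2bp2 (48.6%). In this order Hmga1 and Igf2bp1 were neighbours that did not differ beyond the array error. Igf2bp2 and Igf2bp3 differed by 0.35 on the log2 scale at day 21, where their values had SDs of 0.20 and 0.21. With normexp correction the order of these 2 turned, at -0.99 for Igf2bp2 and -0.93 for Igf2bp3, so it is not settled.

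Day 0 and day 21 were hybridised on the same slide and scanned together, while day 3 sat by itself on a different slide, so only the day 21 against day 0 values lie within a slide. For day 3, slide and day cannot be told apart. Scaling to 8 spike-in control probes moved the median of all genes at day 3 from -0.08 to -0.63 and made 86.1% rather than 50.4% of the genes past 2-fold lower ones. The share of lower calls at day 21 against day 0 was 56.8%, or 71.1% with spike-ins and 45.6% with the percentile of detected spots, and at day 21 against day 3 it was 47.9%, 23.1% and 37.4%. Taking off the median of all genes cancels any single factor per array. The spike-in, median and percentile scalings therefore cannot move the values that follow, and only the other settings could. Relative to the median of all genes, Hmga2 stayed between -1.20 and -0.997 at day 3 and between -4.15 and -3.47 at day 21 against day 0 under all settings tried. Igf2bp1 stayed between -2.38 and -1.69 in the latter comparison, Igf2bp3 between -1.29 and -0.77 and Igf2bp2 between -0.84 and -0.81. Hmga1 ran from -2.48 to -0.15, the upper end being its dim probe. Igf2bp2 at day 3 lay between -0.0035 and 0.12 on this relative scale, and between -0.54, with spike-ins, and 0.07 before the median was taken off, and so had no settled sign.

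The promoters held different motifs. RefSeq entries of 250 bases before to 50 after the start (GRCm38.p6) were found for 5 of the 6 genes, Igf2bp1 being the exception. Searches on both strands covered the GC box GGGCGG, the CACGTG E-box, CCAAT and the pyrimidine repeat TCTCTCTC, found in 35.7%, 7.15%, 37.4% and 3.93% of 32851 promoters of the same length. The Hmga2 promoter, shown because Hmga2 had the largest difference, held 3 copies of the repeat and 1 GC box, in capitals, with no overlap between them (chr10:120476420-120476719, minus strand).
Hmga2: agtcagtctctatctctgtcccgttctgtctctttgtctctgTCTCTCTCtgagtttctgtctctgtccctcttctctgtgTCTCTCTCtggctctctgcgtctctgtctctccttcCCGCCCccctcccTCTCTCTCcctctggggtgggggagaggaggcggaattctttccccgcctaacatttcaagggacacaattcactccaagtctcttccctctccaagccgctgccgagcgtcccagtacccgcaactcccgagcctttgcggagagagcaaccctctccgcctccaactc
The Hmga1 promoter held 4 GC boxes and none of the other motifs, and was 74% G or C against a median of 52.7% over all promoters (chr17:27556324-27556623, plus strand).
Hmga1: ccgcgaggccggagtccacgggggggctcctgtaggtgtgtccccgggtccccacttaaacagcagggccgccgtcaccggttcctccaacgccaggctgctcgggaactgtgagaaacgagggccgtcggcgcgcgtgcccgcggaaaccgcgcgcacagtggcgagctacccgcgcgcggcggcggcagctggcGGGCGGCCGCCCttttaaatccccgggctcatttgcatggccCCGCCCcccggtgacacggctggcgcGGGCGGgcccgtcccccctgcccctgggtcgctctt
The Igf2bp3 entry held 2 E-boxes and 1 CCAAT and no GC box (chr6:49214905-49215204, minus strand). It lies inside the gene, which runs to 49215469, so the region before the outermost start was not searched.
Igf2bp3: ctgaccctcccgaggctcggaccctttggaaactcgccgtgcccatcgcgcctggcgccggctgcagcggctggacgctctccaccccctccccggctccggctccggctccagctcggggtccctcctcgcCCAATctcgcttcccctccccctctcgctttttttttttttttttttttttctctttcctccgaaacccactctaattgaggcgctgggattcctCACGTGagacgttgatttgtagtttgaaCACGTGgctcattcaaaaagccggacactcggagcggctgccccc
The Igf2bp2 promoter held 2 GC boxes, and the Lin28b entry 1 E-box, 1 CCAAT and 1 repeat. That Lin28b entry (chr10:45470152-45470451, minus strand) also lies inside its gene, which runs to 45486314. These are letter matches, and no binding was measured.

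Genes whose course over the 3 arrays was most like that of a member were found by the distance between profiles centred on their own mean, among 12220 other genes well above background on all 3 arrays. Nearest to Hmga2 were the histone gene H2ac4 (distance 0.13), the DNA repair gene Fanca (0.15), the kinetochore gene Ska1 (0.20), the fatty acid carrier Fabp3 (0.24) and the linker histone H1f5 (0.24). Their differences at day 21 against day 0 ran from -4.24 to -3.97, beside -4.30 for Hmga2. Among the nearest to Hmga1 were the sister chromatid cohesion gene Dscc1 (0.039) and the spindle gene Nusap1 (0.062). Among the nearest to Igf2bp1 were Sh3bgrl2 (0.051) and the centromere gene Oip5 (0.054), and Hmga1 itself ranked 4 (0.076). Nearest to Igf2bp2 were the apoptosis gene Bax (0.0031), the ATP synthase inhibitor Atpif1 (0.0064) and the pseudogene Gm8580 (0.011), and nearest to Igf2bp3 the cell cycle kinase Cdk4 (0.021), Gemin4 (0.030) and Alyref2 (0.031). With 3 points per profile many genes lie close, so these names are a description only.

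Most of the cell division genes were at least 2-fold lower at day 21. For this and the following lists the comparison is all measured genes, of which 7.85% were 2-fold lower and 7.73% higher at day 3. At day 21 against day 0, 16.8% were lower and 12.8% higher. Of 22 measured proliferation genes 9 were at least 2-fold lower at day 3 and 0 higher, with a median of -0.90, and 21 of 22 with spike-in scaling. At day 21 against day 0, 20 of 21 were lower and 0 higher, with a median of -3.06. Bub1 was well above background at day 0 and not at day 21. Birc5, an inhibitor of cell death in mitosis, differed by -3.81, the mitotic kinase Plk1 by -3.75, the proliferation antigen Mki67 by -3.74 and cyclin A2, Ccna2, by -3.70. The part of cell division in the values of the Hmga and Igf2bp genes was not tested.

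The other high mobility group genes were mostly within 2-fold. Of 9 measured, 1 was 2-fold lower at day 3 and 3 at day 21 against day 0, with 0 higher. Over all measured genes 7.85% and 16.8% were 2-fold lower. The list median at day 21 was -0.10, which turned positive with the percentile of detected spots and with quantile normalization. Hmgb3, a chromatin protein of fetal and stem cells, was lowest at -2.33, followed by Hmgb2 at -1.38 and Hmgn1 at -1.03, and Hmgn5 was at 0.83. Hmgn1 ranged from -1.29 to -0.46 over the scalings tried.

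Genes that make or use let-7 were mostly within 2-fold. Of 23 measured genes of let-7 processing and LIN28 partnership, 1 was 2-fold lower at day 3 (the slicer Ago2, -1.03) and 4 at day 21 against day 0, with 0 higher. With spike-in scaling 3 were lower at day 3 and 6 at day 21, and with normexp 0 at day 3. Without these changes the 4 were the RNA-binding protein Hnrnpa1 (-1.58), Ago2 (-1.54), the Dicer partner Tarbp2 (-1.36) and the export factor Xpo5 (-1.07). Xpo5 ranged from -1.32 to -0.87 over the scalings tried. Dicer1 was at 0.14, Drosha at -0.20, and the uridylating enzymes that work with LIN28, Tut4 and Tut7, at -0.05 and 0.27. Dicer1 and Tut4 changed sign with the scaling. The list median was -0.29 at day 3 and -0.05 at day 21, and the latter turned positive under the same pair of scalings. Of the protein-coding genes whose span holds a let-7 hairpin, Wdr82 (let-7g) differed by -0.26 at day 21, Huwe1 (let-7f-2 and miR-98) by 0.17 and Spaca6 (let-7e) by 1.01 at a dim signal of 16.4 at day 0, which says nothing of the mature microRNAs.

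Of 25 other genes known as let-7 targets, 19 were measured. At day 3, 4 were 2-fold lower and 1 higher, with a median of -0.35. With spike-in scaling 9 were lower at day 3, where 25.6% of all genes were. At day 21 against day 0, 6 were lower and 0 higher, with a median of -0.42 beside -0.21 over all genes. The lowest were Rrm2, which supplies nucleotides for DNA (-2.88), the phosphatase Cdc25a (4.01-fold lower), the GTPase Nras (-1.59) and the transcription factor Myc (-1.58). The receptor Igf1r (-1.14) was also lower, and ranged from -1.39 to -0.97 over the scalings tried. A bound, used where only 1 array measured a gene, sets its bright value against the higher of the dim array's lowest measurable value and the gene's own value there. By such a bound Cdk6 was at least 2.11-fold lower, and the activin receptor Acvr1c at least 33.3-fold higher. Rrm2 is also in the proliferation list. Mycn was not above background at any day.

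The mRNAs known to be bound by IGF2BP proteins moved in both directions. Igf2, the fetal growth factor, was not above background at day 0 (5.03) and read 108 at day 3 and 849 at day 21, at least 10.5-fold and at least 75.2-fold higher than in MSCs. Its level was thus highest on the array where all 3 Igf2bp genes were lowest. A link between Igf2 and the Igf2bp genes was not tested. H19 had no named probe. Of 6 measured transcripts, 1 was lower at day 3 and 3 at day 21 against day 0: the hyaluronan receptor Cd44 (-2.62), Myc and the growth factor Hdgf (-1.17), while laminin Lamb2 was higher (1.20). With spike-in scaling 3 were lower at day 3, where 25.6% of all genes were. Lamb2 at day 21 was then at 0.95, short of 2-fold. Hdgf at day 21 ranged from -1.42 to -0.96 over the scalings tried. Actb, the beta-actin mRNA that gave the family its zipcode-binding name, differed by -0.73. Ucp1 and Mapk4 were not above background at any day.

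Among 20 measured genes of the m6A machinery and IGF2BP cofactors, 1 was 2-fold lower at day 3 and 2 at day 21 against day 0, with 0 higher, and with spike-in scaling 6 in each. Both were partners of IGF2BP1, Ybx1 (-1.73) and Syncrip (-1.69), followed by the stabilising protein Elavl1 (-0.89) and the reader Ythdf2 (-0.86). The methyltransferase Mettl3 was at -0.60 and the demethylase Fto at 0.32. The list median was -0.57.

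Genes linked to HMGA proteins were mixed. Cdkn2a, the locus of p16 and p19ARF that HMGA2 is known to restrain in young stem cells, read 5557 at day 0, 13894 at day 3 and 21703 at day 21, and differed by 1.30 and 1.82 from day 0. Junb, a positive regulator of Cdkn2a, differed by -1.32 at day 21, at a signal of 81.4, 52.8 and 36.0. The cyclins, which the proliferation list also holds, Ccna2 (-3.70) and Ccnb2 (-3.06) and the repair gene Ercc1 (-1.07) were lower at day 21. Ercc1 ranged from -1.32 to -0.90 over the scalings tried. Retinol carrier Rbp4 was at least 196-fold higher by a bound. In all 4 of 11 measured genes were lower and 1 higher at day 21 against day 0, with a median of -0.11 that turned positive with the percentile of detected spots. With spike-in scaling 4 were lower at day 3, where 25.6% of all genes were, and with normexp 2 at day 21.

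Of 9 measured genes of the fetal growth network outside the set, 4 were 2-fold higher at day 3 and 0 lower, and at day 21 against day 0 5 were higher and 1 lower. Their median was 0.58 and 1.39. With spike-in scaling the day 3 median was 0.04, with 3 higher and 1 lower. The cell cycle inhibitor Cdkn1c read 1964, 21342 and 17784 and was higher by 3.03 at day 21, followed by the proteoglycan Gpc3 (2.28), Peg3 (2.14) and Mest (2.08). Plag1, a zinc finger activator of Igf2 that HMGA2 is known to act through, was at least 3.63-fold higher. Igf2r, the receptor that clears IGF2, was lower (-1.22), and Afp was at least 3.79-fold lower from a dim 28.4.

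**Figure D4:**
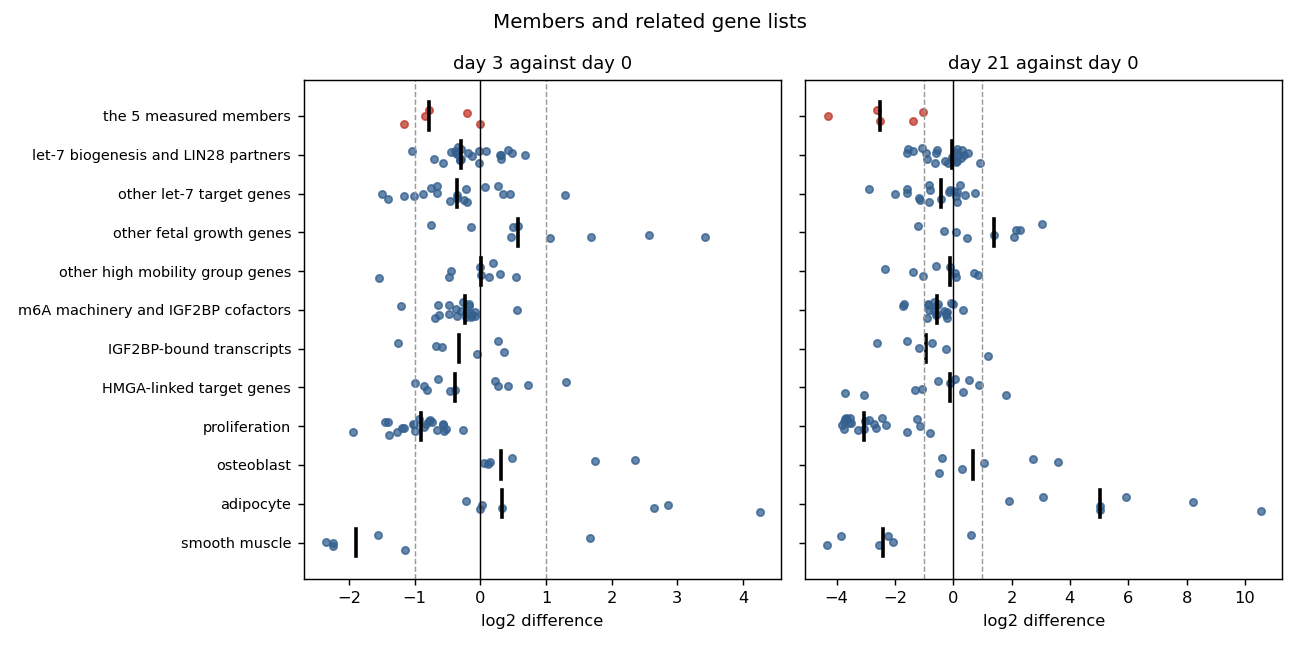
Log2 difference from day 0 of each measured gene in the lists (points) with list medians (black bars), at day 3 and day 21; dashed lines mark 2-fold. At day 21 the median is -2.51 for the 5 members (red), which were chosen with these values known, -0.10 for the high mobility group list, -0.42 for the let-7 target list and -3.06 for the proliferation list, and the points of the members overlap those of the other lists.

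Marker genes of several cell types also differed by day. In these bulk cultures the number of such cells and the mRNA per cell cannot be told apart. Adipocyte markers were higher in all 7 measured cases at day 21 against day 0, with 4 more by a bound, and their summed level relative to the 75th percentile was 12.1, 43.8 and 1258 on the 3 arrays. Smooth muscle genes were lower in 5 of 6, with sums of 3720, 1306 and 598. Osteoblast genes were higher in 3 of 6, or in 2 with median or spike-in scaling, with 4 more by a bound and sums of 1079, 1391 and 1170. Such sums follow the brightest probes of a list and need not move with the counts. Sp7, a defining factor of osteoblasts, was not above background at any day. All 8 marrow stromal surface genes were above background on every array, with sums of 348, 652 and 613. The chondrocyte list had 2 of 4 higher and sums of 71.7, 71.2 and 331.6, the macrophage list 2 of 4 higher and sums of 59.9, 53.7 and 86.4, and the endothelial list 0 of 2 with sums of 21.1, 28.5 and 17.0. Ptprc, Adgre1 and Mrc1, defining markers of macrophages, and Cdh5 of endothelium were not above background at any day. The part of these cell types in the values of the Hmga and Igf2bp genes was not tested.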

How the data were processed

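RNA of 3 cultures was measured on 1 single-colour Agilent array each. Per the file headers, Feature Extraction 10.10.1.1 made the deposited intensity values, background-subtracted and detrended but not scaled between arrays; the submitters' processing notes name version 12.0. The deposited value table held the same intensity (largest relative difference 0).

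Log2 of the processed signal minus each array's 75th percentile over 59305 non-control spots (172.2, 174.6 and 190.7) was used, without outlier spots. Well above background is Feature Extraction's mark on at least 50% of a probe's spots. Of 55664 probes, 26755 matched 1 RefSeq gene (GRCm38.p6). The probe with the highest mean stood for a gene. Calls are at least 2-fold. The SD of a log2 difference was 0.12 over 234 probes with 10 spots. The number of arrays limits the precision. The normexp alternative (limma 3.58.1, offset 50) used the spots' median signal. Python 3.11.15 was used. The code of the calls was checked on simulated shifts with repeat-spot noise only, which does not test calls across cultures or slides. Named genes are the members, the 4 measured genes most altered at day 21 in a list, and the nearest profiles; others were named after their values were seen. The members and lists were chosen with earlier results of these data known. Some genes that this rule names are not reported here.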

Additional observations from a re-analysis of the deposited data

How the results depend on the processing

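Under the 9 alternatives that give member values the 5 measured genes were lower at day 21 than at day 0 (45 of 45 values). These reuse the same arrays, so the tally is no independent support. Keeping outlier spots or dropping the filter on dim probes left the member values as they were. The tally also holds the dim Hmga1 probe at -0.37, about 1 SD. No member difference past 2-fold changed sign. Normexp correction gave 3 genes at least 2-fold lower at day 21 against day 0 and 3 against day 3, and Hmga2 at -3.63. Against day 0, 4 genes were lower at day 21 with the percentile of detected spots, quantile normalization or the dimmest detected probe. Against day 3, 4 were lower with that percentile, quantile normalization or the mean of a gene's probes. Spike-in scaling gave 3 at day 3, where 25.6% of genes were 2-fold lower, and 3 for day 21 against day 3, where 3.64% were. It put Hmga2 at -4.56 for day 21 against day 0. The percentile of detected spots put that Hmga2 value at -4.13, and the dimmest detected probe at -4.14, with 3 genes lower for day 21 against day 3. A 3-fold call left 0, 3 and 3 genes lower at day 3 against day 0, day 21 against day 0 and day 21 against day 3. The cause of the normexp and spike-in differences was not tested.

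Over all genes, 978 were lower and 963 higher at day 3, 2078 and 1582 at day 21 against day 0, and 906 and 987 at day 21 against day 3. Normexp gave 550 and 582 for the first and 466 and 613 for the last, and spike-ins 3190 and 516 for the first and 464 and 1548 for the last. A 3-fold call gave 314 and 497, 839 and 951, and 273 and 435. Without the filter on dim probes the counts were 1685 and 1904, 3019 and 2787, and 1689 and 1792. No paired analysis was possible because each group had 1 array. Signals near the lowest measurable one limit Lin28b and the dim Hmga1 probe.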
